A study of Mus musculus with 15 samples.

Results

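Cytochrome P450 genes of families 1 to 4 were described in RNA sequencing libraries of mouse colon. The genes were taken by name: every row of the table of counts whose symbol is Cyp, a family number from 1 to 4, a subfamily letter and a gene number, with nothing after it. This rule found 76 of the 56859 rows. Of these, 13 had no count in any library, 28 had counts too low to test, and 35 passed the filter on low counts and were tested.

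Cytochrome P450 enzymes are haem proteins of the endoplasmic reticulum that insert an oxygen atom into fat-soluble substrates, with electrons passed on from NADPH by P450 oxidoreductase. Families 1, 2 and 3 are best known for oxidising drugs, carcinogens and steroids, many under the control of receptors that sense their substrates, while genes of the Cyp2c, Cyp2j and Cyp4 subfamilies also convert arachidonic acid and other fatty acids. In the intestine they act in epithelial cells as a first barrier to swallowed compounds. Cyp2e1 is known for activating azoxymethane, the carcinogen used here.

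The 15 libraries form 5 groups of 3 and hold colon RNA of C57BL/6J males. The labels give an age of 6 to 10 weeks for every library, whatever its day. The age at which tissue was taken is not given separately for any group. The model joins azoxymethane (AOM, 10 mg/kg, day 0) with dextran sulfate sodium (DSS, 2.5% in the drinking water), which injures the colonic lining, on days 7 to 11, 28 to 32 and 49 to 53. Saline D27, saline D48 and saline D100 are AOM/DSS groups injected with saline on the DSS days and named here by the day in their sample descriptions. The APX3330 group is an AOM/DSS group injected instead with 25 mg/kg of APX3330 (also E3330), an inhibitor of the redox activity of APE1/Ref-1. The Control group is labelled only C57BL/6 and wild type, yet the common protocol gives AOM to all mice, so whether Control mice were injected was not settled. No day is given for APX3330, the D48 and D100 titles read cycle1 and cycle2, and nothing states that each library is a separate animal. P-values therefore measure the spread among these libraries, and a difference between APX3330 and a saline day cannot be told apart from a difference in day.

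Library totals ran from 13548661 to 17919613 counts. Levels are in CPM (counts scaled to a common library size with edgeR's TMM factors) and are given as mean ± SD of 3 libraries (n = 3). The colon's epithelial markers were present throughout: the sum of 10 pan-epithelial genes ran from 9187 to 12099 CPM. Other tissues stood out in 5 libraries. The sum of 12 squamous epithelium markers was 1311 and 615 CPM in Control replicates 1 and 3, 976 in saline D100 replicate 1 and 117 in saline D48 replicate 2, against at most 8.33 in the others, and 10 exocrine pancreas markers summed to 40975 and 9897 CPM in saline D48 replicates 2 and 3. Several measures set Control apart from all other groups. The sum of 8 goblet cell markers was 9808 to 10772 CPM in Control and 26695 to 82309 in the others, that of 10 smooth muscle markers 11136 to 11433 against 4786 to 10912, and Hoxd13, a homeobox gene of the hind end of the gut, 225 to 249.9 CPM against 46.4 to 137. Of 10 surface colonocyte markers, which summed to 5864 to 7508 CPM in Control and 3876 to 7074 elsewhere, 2 were lower and 4 higher than Control at D27, 4 and 1 at D48, 4 and 4 at D100 and 3 and 3 under APX3330. Slc26a3, a chloride exchanger, and Car1, a carbonic anhydrase, are 2 markers that stood lower outside Control, while others of the list were called higher. Slc26a3 was at 1135 to 1591 CPM in Control and 275 to 891 in the other 12 libraries, and Car1 at 722 to 1150.0 against 93.3 to 552. These differences move with every comparison with Control below, and their part in it was not tested. In bulk tissue, fewer cells of a type and less RNA in each cannot be told apart.

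The set as a whole stood lower in all 4 AOM/DSS groups than in Control. The 76 genes summed to 1852, 2066 and 2272 CPM in the Control libraries. In the other 12 libraries the sum lay between 970.1 and 1492 CPM, with no overlap with Control. Group means were 2063 ± 210.0 CPM for Control, 1305 ± 112 for D27, 1090 ± 177 for D48, 1139 ± 159.9 for D100 and 1305 ± 192 for APX3330. Cyp2c55 alone took 21.9% to 37.9% of these counts in Control and 6.86% to 24.0% elsewhere. Without Cyp2c55 the sums were 1448 ± 37.8 CPM in Control and 1106 ± 113, 956 ± 92.4, 917 ± 101 and 1048 ± 86.1 in the same order of groups, so the Control group stood highest with and without it.

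**Figure D1:**
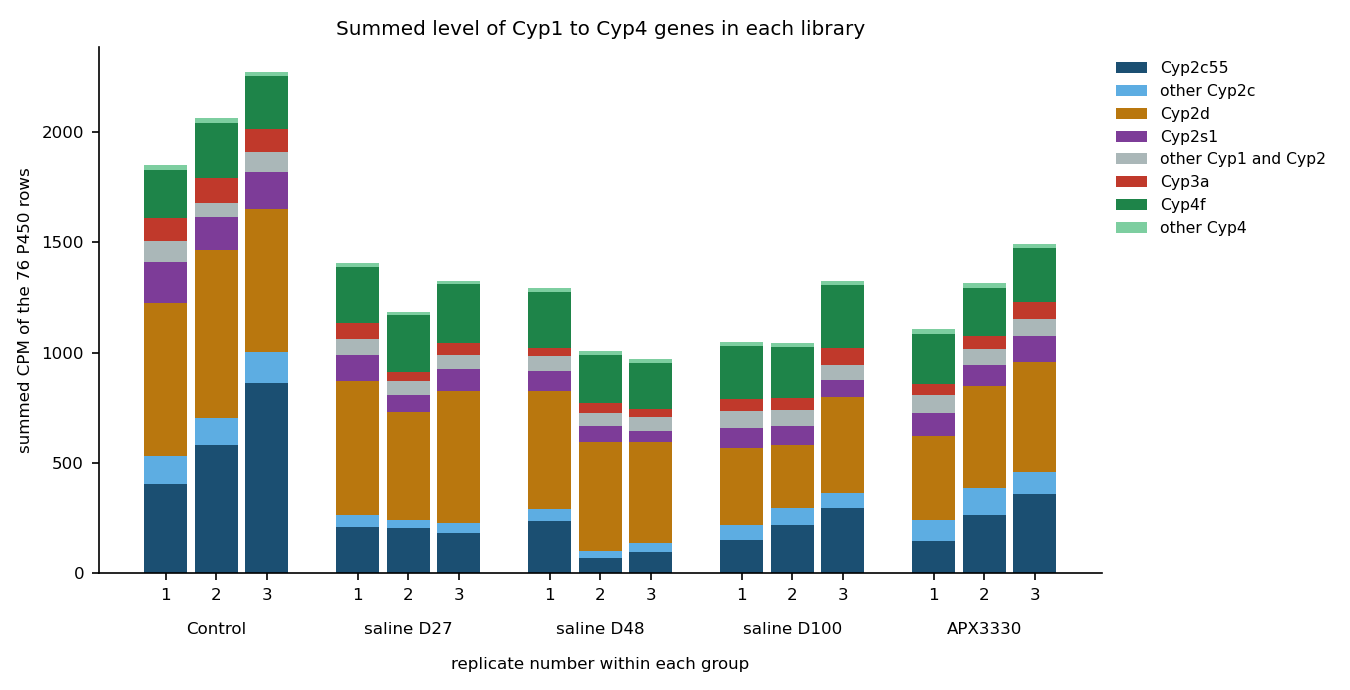
Stacked bars give the summed CPM of the 76 Cyp1 to Cyp4 rows in each of the 15 libraries, split by subfamily or gene as coloured; the x axis gives the replicate number in each group. The 3 Control bars reach 1852 to 2272 CPM, all others stay at or below 1492, and the Cyp4f segment is 210.1 to 288 CPM high in all 15 libraries.

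Per kilobase of exon, where genes can be set beside each other, Cyp2c55 and Cyp2d34 led in every group. Cyp2c55 had 308 ± 115 RPKM in Control and Cyp2d34 had 136 ± 9.905. At saline D27 and D48 the order of the means turned, with 99.7 ± 6.95 and 67.3 ± 45.3 RPKM for Cyp2c55 against 114 ± 10.7 and 108 ± 6.89 for Cyp2d34, and the libraries of both genes overlapped at both days. Cyp2c68 was the third in Control with 67.6 ± 3.901 RPKM, the sixth at saline D27 with 22.8 ± 5.09 and the third again in APX3330 with 54.2 ± 8.82. Cyp4f14 went from the ninth place in Control (18.9 ± 2.29 RPKM) to the third at saline D100 (41.01 ± 11.9 RPKM). Over all libraries 18 genes had a mean over 10 CPM, and 13 of the 35 tested genes had a mean under 5 CPM.

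Genes were called where edgeR's quasi-likelihood test, adjusted by Benjamini-Hochberg over all 18038 genes tested, gave p under 0.05, and every adjusted p below is from that test unless another is named. The F test over the 5 groups called 26 of the 35 genes, against 37.3% of all genes tested. Against Control, saline D27 had 12 lower and 2 higher, where 9.36% of all genes were called lower and 10.2% higher. Saline D48 had 14 lower and 2 higher (background 13% lower, 14.3% higher). Saline D100 had 16 lower and 3 higher (background 10.5% and 11.4%). APX3330 had 8 lower and 1 higher (background 8.18% and 7.16%). Median log2 fold changes of the 35 genes were -0.54, -0.48, -0.58 and -0.48 in that order, while the medians over all genes tested were -0.00, 0.00, 0.00 and 0.02. Lower calls thus made up 34.3%, 40.0%, 45.7% and 22.9% of the tested P450 genes, each above the background share of lower calls, and the shares of higher calls, 5.71%, 5.71%, 8.57% and 2.86%, were below theirs. Without the 5 libraries with squamous or pancreatic transcripts, 1 library was left in Control and 1 in saline D48. The medians of the 35 genes against Control were then -0.59, -0.22, -0.56 and -0.23 in the same order. Fewer calls held in that fit, and a call lost there cannot be told apart from the loss of replicates.

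Of the 35 genes, 4 were lower than Control in all 4 comparisons: Cyp2c55, Cyp2d22, Cyp2s1 and Cyp3a13. A further 3, Cyp2c68, Cyp2d13 and Cyp2f2, were called at each saline day, and their comparison with APX3330 was not called, although all APX3330 libraries of Cyp2c68 and Cyp2d13 were below all Control libraries. Of the 35 genes, Cyp4f18 alone was higher in all 4. No gene was lower in one of these comparisons and higher in another, and 10 were called in none of them. The 4 comparisons share the Control libraries.

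APX3330 against saline gave a mixed picture. Against saline D27, 5 genes were higher and 3 lower (background 4.71% higher, 4.37% lower). Against saline D48, 7 were higher and 2 lower (background 9.41% and 10.3%). Cyp2c68, Cyp2c69, Cyp2d26 and Cyp2j6 were among the higher genes in both. Against saline D100, edgeR called 0 of the 35 in either direction (background 0.305% and 0.2%), while 12 had an unadjusted p under 0.05 and DESeq2 called 6 (1.19% of all genes higher and 1.37% lower in DESeq2). Median log2 fold changes of the 35 genes were 0.16, 0.30 and 0.22, with medians over all genes of -0.01, -0.01 and -0.00.

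Between saline days, D48 against D27 had 1 gene higher and 0 lower (background 0.854% and 0.499%), D100 against D27 had 2 higher and 5 lower (background 1.63% and 1.45%), and D100 against D48 had 5 higher and 5 lower (background 7.2% and 6.4%). For D48 against D27, 11 genes had an unadjusted p under 0.05 and DESeq2 called 4 (2.34% of all genes higher and 1.82% lower in DESeq2). Over the 10 comparisons there were 93 calls, of which 50 held in every fit that left out 1 library of the groups compared. The others are given below with the libraries they rest on.

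**Figure D2:**
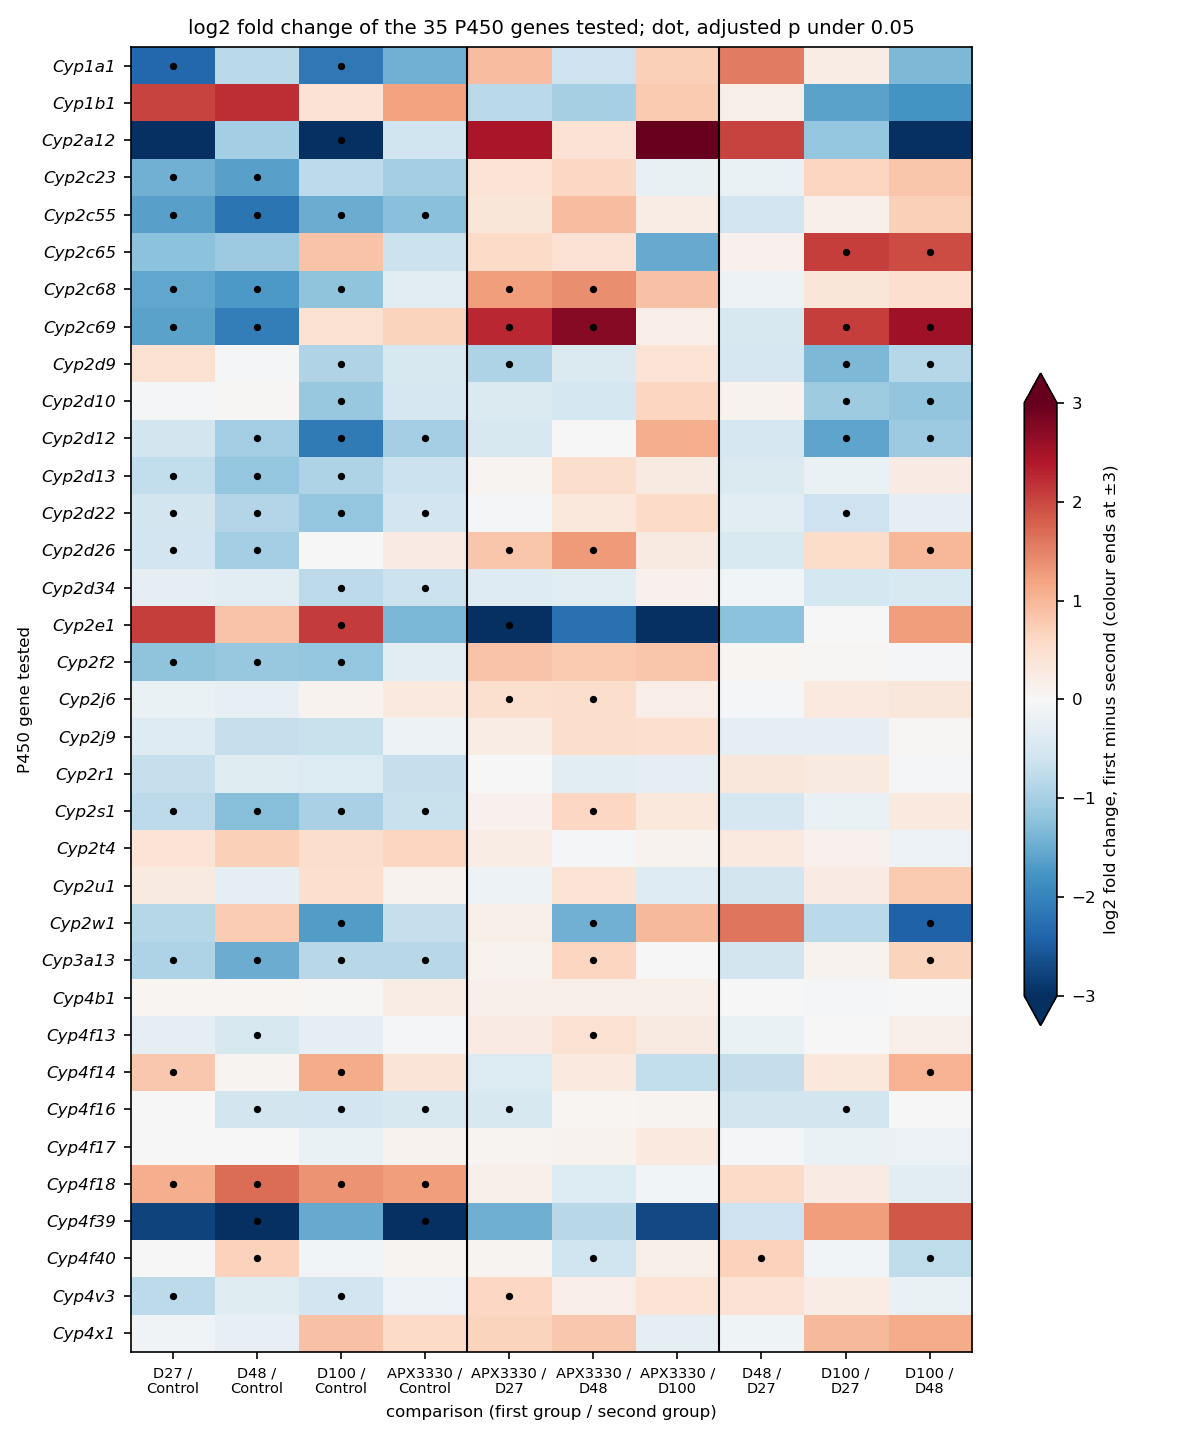
Each cell is the log2 fold change of 1 of the 35 tested genes (rows) in 1 of 10 comparisons (columns, first group over second), blue for lower and red for higher, with the colour scale ending at 3 on either side; a dot marks an adjusted p under 0.05 in edgeR. The left block of comparisons with Control is mostly blue, with 50 of its 58 dots on lower genes, and the column of APX3330 against D100 holds no dot.

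Cyp2c genes lie mostly in a cluster on chromosome 19, which holds 14 of the 76 genes from 39007019 to 40187333 (GRCm38), 4 of them tested. They are known as hydroxylases and epoxygenases of arachidonic acid and as drug oxidases. The summed CPM of all Cyp2c genes was 532 to 1003 in Control and 99.2 to 461 in the other 12 libraries. The cluster contains near copies. Between Cyp2c68 and Cyp2c69, 96.5% of the coding bases are identical, and 42.6% of all 75-base windows of Cyp2c69 and 28.5% of those of Cyp2c68 recur in another gene of the genome annotation, mostly in Cyp2c40. Values of these genes could therefore hold reads of their copies. No 75-base window of Cyp2c55 recurs.

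The coding stretch around the haem-binding cysteine shows how alike the genes are at that place. In the GENCODE M21 transcripts, 60 bases from each gene are given 5′ to 3′, in lower case, with capitals where a base differs from Cyp2c68. Cyp2c69 differs at 1 base, Cyp2c65 at 9 and Cyp2c55 at 11.
Cyp2c68: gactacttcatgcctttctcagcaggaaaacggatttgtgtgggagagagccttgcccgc
Cyp2c69: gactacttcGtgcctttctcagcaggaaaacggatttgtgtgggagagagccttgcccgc
Cyp2c65: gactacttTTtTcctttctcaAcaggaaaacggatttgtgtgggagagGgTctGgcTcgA
Cyp2c55: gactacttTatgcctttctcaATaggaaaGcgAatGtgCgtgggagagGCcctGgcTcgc

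Cyp2c68, Cyp2c69 and Cyp2c65 also share a feature of their promoters. The 9 letters CAAAGTCCA, a string known from binding sites of HNF4A, an epithelial transcription factor of gut and liver, were searched on both strands in the 250 bases before the start of each RefSeq transcript (GRCm38.p6). They occur in 0.384% of 32851 promoters (126 promoters). Of the 27 tested P450 genes with a promoter in the table, 3 hold them, and all 3 are these genes, at 77, 75 and 116 bases before the start. The 150 bases before the start are printed for them, in the direction of the gene, with CAAAGTCCA in capitals, and in Cyp2c68 also GCGTG read on the other strand (CACGC), the core that the aryl hydrocarbon receptor (AHR) binds. The windows are chr19:39741102-39741251 and chr19:39886770-39886919 on the minus strand and chr19:39060856-39061005 on the plus strand. Aligned bases of the printed windows are 91.8% identical between Cyp2c68 and Cyp2c69 and 72.1% between Cyp2c68 and Cyp2c65. A match is a description of letters and not a measured site.
Cyp2c68: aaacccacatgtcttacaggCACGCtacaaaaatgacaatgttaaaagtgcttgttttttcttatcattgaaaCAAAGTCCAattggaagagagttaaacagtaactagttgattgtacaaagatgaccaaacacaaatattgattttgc
Cyp2c69: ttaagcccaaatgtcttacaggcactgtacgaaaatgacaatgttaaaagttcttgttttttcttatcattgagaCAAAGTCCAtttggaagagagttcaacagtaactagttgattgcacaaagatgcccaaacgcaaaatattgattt
Cyp2c65: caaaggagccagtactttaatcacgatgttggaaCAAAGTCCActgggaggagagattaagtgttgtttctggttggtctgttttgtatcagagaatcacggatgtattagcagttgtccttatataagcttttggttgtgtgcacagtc

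Cyp2c55 (chromosome 19, 39007019 to 39042693, plus strand), an arachidonic acid hydroxylase known from the colon, was lower than Control in all 4 groups. Its level was 405, 579 and 861 CPM (Control), 209, 205 and 183 (D27), 238, 69.02 and 96.2 (D48), 150.2, 217 and 296 (D100) and 147, 265 and 359 (APX3330). Every Control library stood above every other library, and the Control range, 405 to 861 CPM, was wider than that of any other group. The log2 fold changes against Control were -1.63 ± 0.41 (SE, adjusted p = 0.0122) at saline D27, -2.20 ± 0.42 (SE, adjusted p = 0.00142) at D48, -1.48 ± 0.41 (SE, adjusted p = 0.0172) at D100 and -1.26 ± 0.41 (SE, adjusted p = 0.0473) under APX3330. The D48 call held with any 1 library left out. The others were lost on leaving out Control replicate 3 (adjusted p = 0.0589) for D27, on leaving out Control replicate 3 or saline D100 replicate 1 or 2 (adjusted p = 0.0551 to 0.0834) for D100 and on leaving out Control replicate 2 or 3 or APX3330 replicate 1 or 2 (adjusted p = 0.0763 to 0.184) for APX3330. The APX3330 call was also lost with DESeq2 (adjusted p = 0.0548). Without the 5 libraries with other tissues the D48 value was -1.29 (adjusted p = 0.144), and the D100 and APX3330 calls were lost too (adjusted p = 0.0635 and 0.072005). In APX3330 the library lowest in Cyp2c55 was also the lowest in Car1 and Slc26a3, named here from the surface colonocyte markers. The library highest in Cyp2c55 was the highest in both. The sum of all surface colonocyte markers followed the order of Cyp2c55 within D48, D100 and APX3330, but not within Control or D27. In Control this sum was highest in replicate 2 (7508 CPM), and Cyp2c55 in replicate 3. At D27, replicate 1 had the lowest sum (6170 CPM) and the highest Cyp2c55. The part of these cells in the values of Cyp2c55 was not tested. Differences between APX3330 and the saline days were not called, with log2 values of 0.37 ± 0.40 (SE, adjusted p = 0.596), 0.93 ± 0.41 (SE, adjusted p = 0.119) and 0.22 ± 0.40 (SE, adjusted p = 0.872) against D27, D48 and D100.

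Cyp2c68 (chromosome 19, 39688834 to 39741054, minus strand) was lower than Control at each saline day and higher with APX3330 than at D27 and D48. It stood at 114, 111 and 124 CPM (Control), 47.8, 30.3 and 39.95 (D27), 45.3, 25.6 and 35.4 (D48), 58.5, 51.9 and 41.5 (D100) and 81.7, 111 and 87.999 (APX3330). The saline libraries were all at or below 58.5 CPM, the APX3330 libraries were all at or above 81.7, and no APX3330 library reached the lowest Control library. Against Control the log2 fold change was -1.56 ± 0.20 (SE, adjusted p = 0.000169) at D27, -1.71 ± 0.20 (SE, adjusted p = 4.54e-05) at D48 and -1.20 ± 0.19 (SE, adjusted p = 0.000478) at D100, and -0.32 ± 0.19 (SE, adjusted p = 0.279) with APX3330, which was not called. APX3330 was higher than saline D27 by log2 1.24 ± 0.19 (SE, adjusted p = 0.00411) and than saline D48 by log2 1.40 ± 0.20 (SE, adjusted p = 0.000401). These 5 calls held under every alternative run for them, including without the 5 libraries. Against saline D100 the value was 0.88 ± 0.19 (SE, adjusted p = 0.0543) in edgeR and 0.88 with an adjusted p of 0.00119 in DESeq2, so this call depended on the tool.

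Cyp2c69 (chromosome 19, 39842814 to 39886799, minus strand), its near copy, was lower in level, and at D100 and with APX3330 it was not below Control. Its values were 3.402, 3.502 and 3.46 CPM (Control), 1.62, 0.688 and 1.05 (D27), 1.39, 0.662 and 0.405 (D48), 5.29, 4.61 and 4.36 (D100) and 5.74, 4.996 and 5.62 (APX3330). The D27 and D48 libraries were below all others, and the D100 and APX3330 libraries were above all Control libraries. Against Control, the log2 fold change was -1.61 ± 0.36 (SE, adjusted p = 0.00665) at D27 and -2.08 ± 0.38 (SE, adjusted p = 0.000988) at D48, and 0.46 ± 0.34 (SE, adjusted p = 0.358) at D100 and 0.66 ± 0.33 (SE, adjusted p = 0.206) under APX3330, which were not called. APX3330 was higher than D27 by log2 2.26 ± 0.36 (SE, adjusted p = 0.00457) and than D48 by log2 2.73 ± 0.38 (SE, adjusted p = 0.000347). Saline D100 was higher than D48 by log2 2.54 ± 0.38 (SE, adjusted p = 0.000904) and than D27 by log2 2.07 ± 0.36 (SE, adjusted p = 0.0115), a call lost on leaving out saline D27 replicate 2 or saline D100 replicate 3 (adjusted p = 0.0513 to 0.0559). On leaving out the 5 libraries, the D27 call against Control was lost (adjusted p = 0.0517), the D48 value moved to -1.33 (adjusted p = 0.252) and that of D100 against D48 to 1.69 (adjusted p = 0.115), while both calls of APX3330 were kept.

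Per length, Cyp2c69 stood at 3.00% ± 0.184 of Cyp2c68 in Control, 2.79% ± 0.570 at D27 and 2.28% ± 1.006 at D48, but at 9.57% ± 0.901 at D100 and 6.03% ± 1.31 with APX3330. By library the ratio was 9.13%, 8.97% and 10.6% at D100 and 7.08%, 4.56% and 6.45% with APX3330, against at most 3.41% in the 9 libraries of Control, D27 and D48. In exact permutation tests over 3 against 3 libraries (two-sided), which cannot go below p = 0.1 and so cannot pass 0.05, D100 and APX3330 gave p = 0.1 against each of these groups and against each other. Adjusted by Benjamini-Hochberg over the 10 comparisons made, these exact p-values were 0.143, and the other 3 comparisons gave exact p = 0.3 to 0.6. Reads of Cyp2c40 could enter both genes, and the ratio was examined after the values of both were seen.

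**Figure D3:**
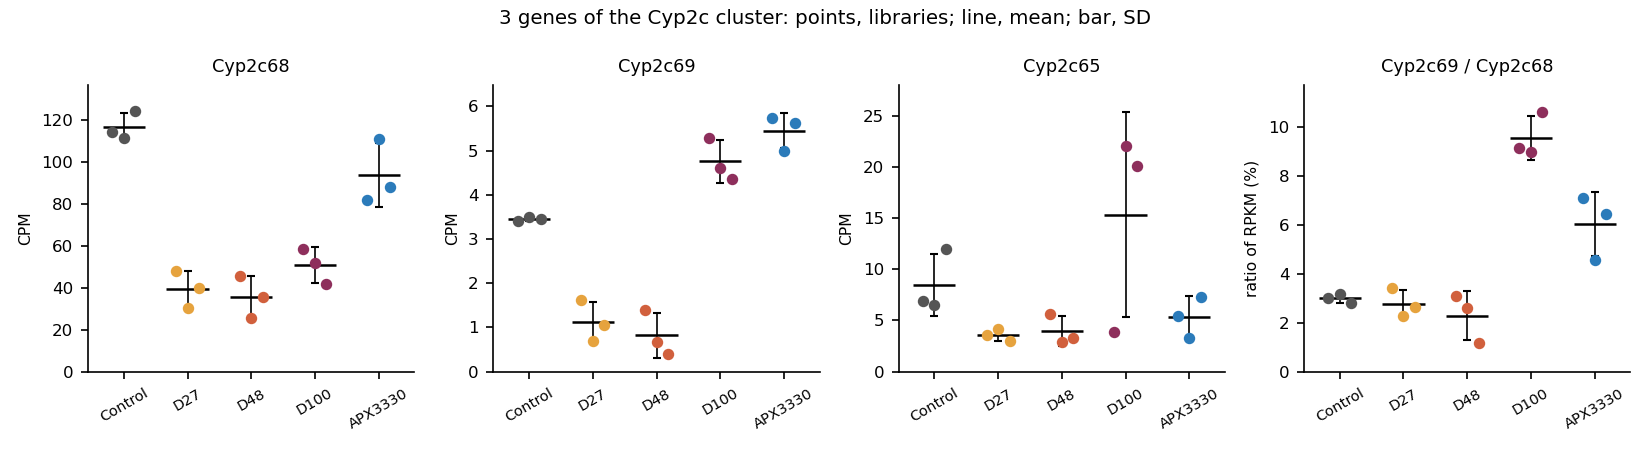
Points are libraries in the 5 groups, lines the mean and bars the SD; the first 3 panels give CPM of Cyp2c68, Cyp2c69 and Cyp2c65, and the last the ratio of RPKM of Cyp2c69 to Cyp2c68 in percent. Cyp2c68 is lowest in the 3 saline groups, and the ratio is 2.28% to 3.00% on average in Control, D27 and D48, 9.57% at D100 and 6.03% with APX3330.

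Cyp2c65 (chromosome 19, 39061015 to 39093944, plus strand), next to Cyp2c55 on the chromosome, was at 6.87, 6.49 and 11.96 CPM (Control), 3.62, 4.196 and 3.04 (D27), 5.62, 2.91 and 3.2999 (D48), 3.88, 22.1 and 20.1 (D100) and 5.47, 3.33 and 7.29 (APX3330). Of the D100 libraries, 2 were the highest of all 15 and the first, which carries squamous transcripts, lay within the range of D27 and D48. D100 was called higher than D27 by log2 2.08 ± 0.50 (SE, adjusted p = 0.0358) and than D48 by log2 1.96 ± 0.49 (SE, adjusted p = 0.0166), though the groups overlapped. The calls were lost on leaving out saline D27 replicate 1 or 2 or 3 or saline D100 replicate 2 or 3 (adjusted p = 0.0717 to 0.124) and on leaving out saline D48 replicate 2 or 3 or saline D100 replicate 2 or 3 (adjusted p = 0.05605 to 0.0729), and both with only the groups compared in the fit (adjusted p = 0.0692 and 0.0676). Cyp2c23, an arachidonic acid epoxygenase best known from kidney, lies apart from the cluster at 44005022 to 44029208 and was low, at 1.899 ± 0.378 CPM in Control. It was called lower at D27 with log2 -1.43 ± 0.46 (SE, adjusted p = 0.0384) and D48 with log2 -1.62 ± 0.46 (SE, adjusted p = 0.0165). The first call was lost in all 6 fits that left out a library (adjusted p = 0.05003 to 0.112), with epithelial scaling and without the filter (adjusted p = 0.0779 and 0.0944), and the second on leaving out Control replicate 1 or saline D48 replicate 1 (adjusted p = 0.0522 to 0.0663). Both were lost without the 5 libraries (adjusted p = 0.206 and 0.2302).

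Cyp2d genes form a cluster on chromosome 15 from 82370527 to 82794294, with 8 members in GENCODE M21 of which 6 were tested. Cyp2d13, also tested, is absent from GENCODE M21, and RefSeq places it within this span. The identities and shared windows below do not cover it. The subfamily is that of human CYP2D6, a major drug oxidase, and its rodent members are also known as steroid hydroxylases. Their summed CPM, Cyp2d13 included, was 702 ± 57.7 in Control, 565 ± 64.6 at D27, 498 ± 37.5 at D48 and 356 ± 76.6 at D100, with 447 ± 59.5 in APX3330. The D27 and D48 ranges overlapped, as did D100 with APX3330, while D100 lay below D27 and D48 in every library. The lowest Control library (649 CPM) was above the highest of the rest (608 CPM). The cluster also holds close copies: coding bases are 92.5% identical between Cyp2d10 and Cyp2d9, 92.1% between Cyp2d12 and Cyp2d9 and 90.6% between Cyp2d10 and Cyp2d34, and 22.3% of the 75-base windows of Cyp2d10 and 12.9% of those of Cyp2d9 recur in another gene.

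The same 60 coding bases around the haem-binding cysteine are given for 4 of them, with capitals where they differ from Cyp2d10, to show how a read could fit more than one. Cyp2d34 differs at 1 base, Cyp2d9 at 2 and Cyp2d12 at 6. Cyp2d22, not printed, also differs at 1 base, though only 79.2% of its coding bases are identical to Cyp2d10. This stretch therefore does not rank the genes by how near they are as a whole.
Cyp2d10: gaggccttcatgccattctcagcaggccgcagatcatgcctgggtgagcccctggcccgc
Cyp2d9: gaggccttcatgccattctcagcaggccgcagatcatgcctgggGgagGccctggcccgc
Cyp2d12: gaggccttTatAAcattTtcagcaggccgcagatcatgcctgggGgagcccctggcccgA
Cyp2d34: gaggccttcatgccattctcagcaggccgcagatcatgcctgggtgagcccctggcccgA

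Cyp2d12 (chromosome 15, 82555072 to 82560403, plus strand) was lowest at day 100. It was at 117, 127 and 91.05 CPM (Control), 81.3, 51.4 and 96.6 (D27), 52.7, 53.9 and 55.9 (D48), 27.7, 21.8 and 27.7 (D100) and 32.8, 67.9 and 64.3 (APX3330). The 3 D100 libraries were the lowest of all 15, and the D48 and APX3330 libraries were all below Control. Against Control the log2 fold change was -2.12 ± 0.25 (SE, adjusted p = 4.53e-05) at D100, -1.04 ± 0.24 (SE, adjusted p = 0.00495) at D48 and -1.02 ± 0.24 (SE, adjusted p = 0.0103) with APX3330, while D27 was not called at -0.54 ± 0.24 (SE, adjusted p = 0.121). D100 was also lower than D27 with log2 -1.57 ± 0.25 (SE, adjusted p = 0.009198) and than D48 with log2 -1.08 ± 0.25 (SE, adjusted p = 0.00989). All of these calls held with any 1 library left out, while leaving out the 5 libraries together ended those at D48, with APX3330 and of D100 against D48 (adjusted p = 0.0855 to 0.179). Against D100, APX3330 had a log2 value of 1.10 ± 0.25 (SE, adjusted p = 0.06101) in edgeR and 1.09 with an adjusted p of 0.000788 in DESeq2.

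Cyp2d10 and Cyp2d9 (known in male mouse liver as a testosterone hydroxylase) were lower at day 100 than in every other group of saline or Control libraries. Cyp2d10 stood at 48.5, 59.3 and 46.3 CPM (Control), 50.2, 33.5 and 63.6 (D27), 63.1, 50.6 and 43.5 (D48), 25.3, 21.1 and 23.5 (D100) and 31.99, 35.3 and 41.6 (APX3330). Cyp2d9 stood at 27.2, 33.8 and 23.9 CPM (Control), 36.8, 35.1 and 44.5 (D27), 35.5, 21.6 and 25.3 (D48), 15.1, 13.2 and 17.3 (D100) and 13.6, 22.8 and 24.4 (APX3330). In both genes the D100 libraries lay below all of Control, D27 and D48, whose libraries overlapped with each other apart from Cyp2d9 at D27, where all 3 were above Control. D100 against Control gave -1.14 ± 0.20 (SE, adjusted p = 0.00086) for Cyp2d10 and -0.90 ± 0.22 (SE, adjusted p = 0.00903) for Cyp2d9. D100 against D48 gave -1.17 ± 0.20 (SE, adjusted p = 0.00195) and -0.86 ± 0.22 (SE, adjusted p = 0.0188), and D100 against D27 -1.08 ± 0.20 (SE, adjusted p = 0.01499) and -1.35 ± 0.22 (SE, adjusted p = 0.009198). The call of Cyp2d9 against D48 was lost on leaving out saline D48 replicate 1 or saline D100 replicate 2 (adjusted p = 0.0756 to 0.0831) or the 5 libraries (adjusted p = 0.0635), and that of Cyp2d10 against D27 on leaving out saline D27 replicate 1 or saline D100 replicate 2 or 3 (adjusted p = 0.0527 to 0.0626). With APX3330, Cyp2d9 was lower than at D27 with log2 -0.93 ± 0.22 (SE, adjusted p = 0.0193), a call lost on leaving out saline D27 replicate 1 (adjusted p = 0.0516).

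Cyp2d34 (chromosome 15, 82615965 to 82620946, minus strand) and Cyp2d22 (chromosome 15, 82370527 to 82380260, minus strand), the member of the cluster usually set beside human CYP2D6, were called lower than Control, Cyp2d34 at D100 and with APX3330 and Cyp2d22 in all 4 groups. Cyp2d34 was at 373, 409 and 355 CPM (Control), 348, 289 and 309 (D27), 308, 313 and 278 (D48), 203, 168 and 287 (D100) and 218, 236 and 267 (APX3330). All Control libraries were above all others, and at D100 the 3 libraries spread from 168 to 287 CPM. Its log2 fold change against Control was -0.79 ± 0.15 (SE, adjusted p = 0.00199) at D100 and -0.66 ± 0.15 (SE, adjusted p = 0.0101) with APX3330, with -0.26 ± 0.15 (SE, adjusted p = 0.247) at D27 and -0.33 ± 0.15 (SE, adjusted p = 0.118) at D48. Neither of its calls held without the 5 libraries (adjusted p = 0.0592 and 0.0993). Cyp2d22 was at 54.4, 59.4 and 52.4 CPM (Control), 39.6, 35.2 and 39.5 (D27), 36.3, 24.9 and 28.7 (D48), 22.4, 23.7 and 28.5 (D100) and 35.7, 41.6 and 34.3 (APX3330). Control did not overlap with any other group. Cyp2d22 changed with log2 -0.54 ± 0.13 (SE, adjusted p = 0.0111) at D27, -0.88 ± 0.13 (SE, adjusted p = 0.000307) at D48, -1.16 ± 0.14 (SE, adjusted p = 4.41e-05) at D100 and -0.58 ± 0.13 (SE, adjusted p = 0.00991) under APX3330. The D27 call was lost on leaving out saline D27 replicate 2 (adjusted p = 0.0555), and with scaling to epithelial genes the D27 and APX3330 calls were lost (adjusted p = 0.0636 and 0.110), the latter at log2 -0.36. D100 was lower than D27 with log2 -0.62 ± 0.14 (SE, adjusted p = 0.0282), which was lost on leaving out saline D27 replicate 1 or 2 or saline D100 replicate 1 or 2 or 3 (adjusted p = 0.0538 to 0.0975) and with epithelial scaling (adjusted p = 0.107). The D48 and APX3330 calls and that of D100 against D27 did not hold without the 5 libraries (adjusted p = 0.0529 to 0.121).

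Cyp2d26 (chromosome 15, 82790101 to 82794294, minus strand), at the far end of the cluster, was called lower at D27 and D48 and not at D100. It was at 15.9, 16.3 and 15.1 CPM (Control), 11.8, 10.7 and 9.29 (D27), 8.06, 8.21 and 7.01 (D48), 14.04, 16.9 and 15.6 (D100) and 20.9, 21.05 and 14.5 (APX3330). The D27 and D48 libraries were below all others, while the D100 and APX3330 libraries surrounded the Control range. Against Control it was lower at D48 with log2 -1.02 ± 0.16 (SE, adjusted p = 0.000414) and at D27 with log2 -0.57 ± 0.16 (SE, adjusted p = 0.02101), the latter lost on leaving out Control replicate 1 or 2 or saline D27 replicate 2 or 3 (adjusted p = 0.0594 to 0.0679). At D100 and with APX3330 the values against Control were -0.02 ± 0.16 and 0.25 ± 0.16, not called. APX3330 was higher than D27 by log2 0.83 ± 0.16 (SE, adjusted p = 0.00932) and than D48 by log2 1.27 ± 0.16 (SE, adjusted p = 0.000205), and D100 was higher than D48 by 0.998 ± 0.16 (SE, adjusted p = 0.00154). The D27 call was lost with epithelial scaling (adjusted p = 0.102), and without the 5 libraries the D27, D48 and D100 calls were lost (adjusted p = 0.106 to 0.185) and those of APX3330 kept. Cyp2d13, annotated in RefSeq as a transcribed pseudogene (chromosome 15, 82636750 to 82642045), fell from 60.5 ± 4.34 CPM in Control to 26.8 ± 5.07 at D48, with log2 -1.17 ± 0.23 (SE, adjusted p = 0.00188), and was also lower at D100 (log2 -0.93 ± 0.23) and D27 (log2 -0.74 ± 0.23), the last lost in all 6 fits leaving out a library (adjusted p = 0.0590 to 0.109) and all 3 without the 5 libraries (adjusted p = 0.0705 to 0.287).

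Cyp3a13 and Cyp2s1 are P450 genes of epithelia. Cyp3a13 (chromosome 5, 137892932 to 137921619, minus strand) is the Cyp3a drug oxidase best known from mouse intestine, and it was the only one of the 7 Cyp3a genes to pass the filter. It was at 103, 114 and 106 CPM (Control), 72.6, 44.2 and 52.5 (D27), 36.3, 43.1 and 35.3 (D48), 55.2, 52.8 and 74.5 (D100) and 49.3, 57.6 and 74.1 (APX3330). Control lay above all other libraries and the D48 libraries were the lowest group, all below D27. The log2 fold change against Control was -0.93 ± 0.18 (SE, adjusted p = 0.00266) at D27, -1.49 ± 0.18 (SE, adjusted p = 6.99e-05) at D48, -0.83 ± 0.18 (SE, adjusted p = 0.00412) at D100 and -0.84 ± 0.18 (SE, adjusted p = 0.00601) under APX3330. These 4 calls held with any 1 library left out, and the first 2 also without the 5 libraries, where the others were lost (adjusted p = 0.103 and 0.0864). Relative to D48 it was higher with APX3330 by log2 0.65 ± 0.18 (SE, adjusted p = 0.0206) and at D100 by log2 0.66 ± 0.18 (SE, adjusted p = 0.0254), and these were lost on leaving out saline D48 replicate 1 or 3 or APX3330 replicate 3 (adjusted p = 0.0592 to 0.0993) and on leaving out saline D48 replicate 1 or 3 or saline D100 replicate 3 (adjusted p = 0.0782 to 0.122), and without the 5 libraries (adjusted p = 0.191 and 0.198).

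Cyp2s1 (chromosome 7, 25802475 to 25816913, minus strand), an extrahepatic enzyme induced through AHR, was at 187, 148 and 167 CPM (Control), 117, 74.6 and 101 (D27), 88.2, 69.6 and 49.3 (D48), 92.3, 84.9 and 77.6 (D100) and 105, 97.8 and 116 (APX3330). Control again did not overlap with any other group. The log2 fold change against Control was -0.78 ± 0.18 (SE, adjusted p = 0.00806) at D27, -1.28 ± 0.18 (SE, adjusted p = 0.000212) at D48, -0.98 ± 0.18 (SE, adjusted p = 0.00145) at D100 and -0.66 ± 0.18 (SE, adjusted p = 0.0236) under APX3330. The first 3 held with any 1 library left out. The call with APX3330 was lost on leaving out Control replicate 1 or 3 or APX3330 replicate 1 or 2 (adjusted p = 0.0552 to 0.0946) and with scaling to epithelial genes (adjusted p = 0.0703). APX3330 was higher than D48 by log2 0.62 ± 0.18 (SE, adjusted p = 0.0274), lost on leaving out saline D48 replicate 2 or 3 or APX3330 replicate 3 (adjusted p = 0.0642 to 0.112) and with only these 2 groups in the fit (adjusted p = 0.0648). With the 5 libraries left out, the D100 call held, the D48 value moved to -0.75 (adjusted p = 0.162), that of APX3330 against D48 to 0.26 (adjusted p = 0.536), and the D27 and APX3330 calls against Control were lost (adjusted p = 0.1097 and 0.252).

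**Figure D4:**
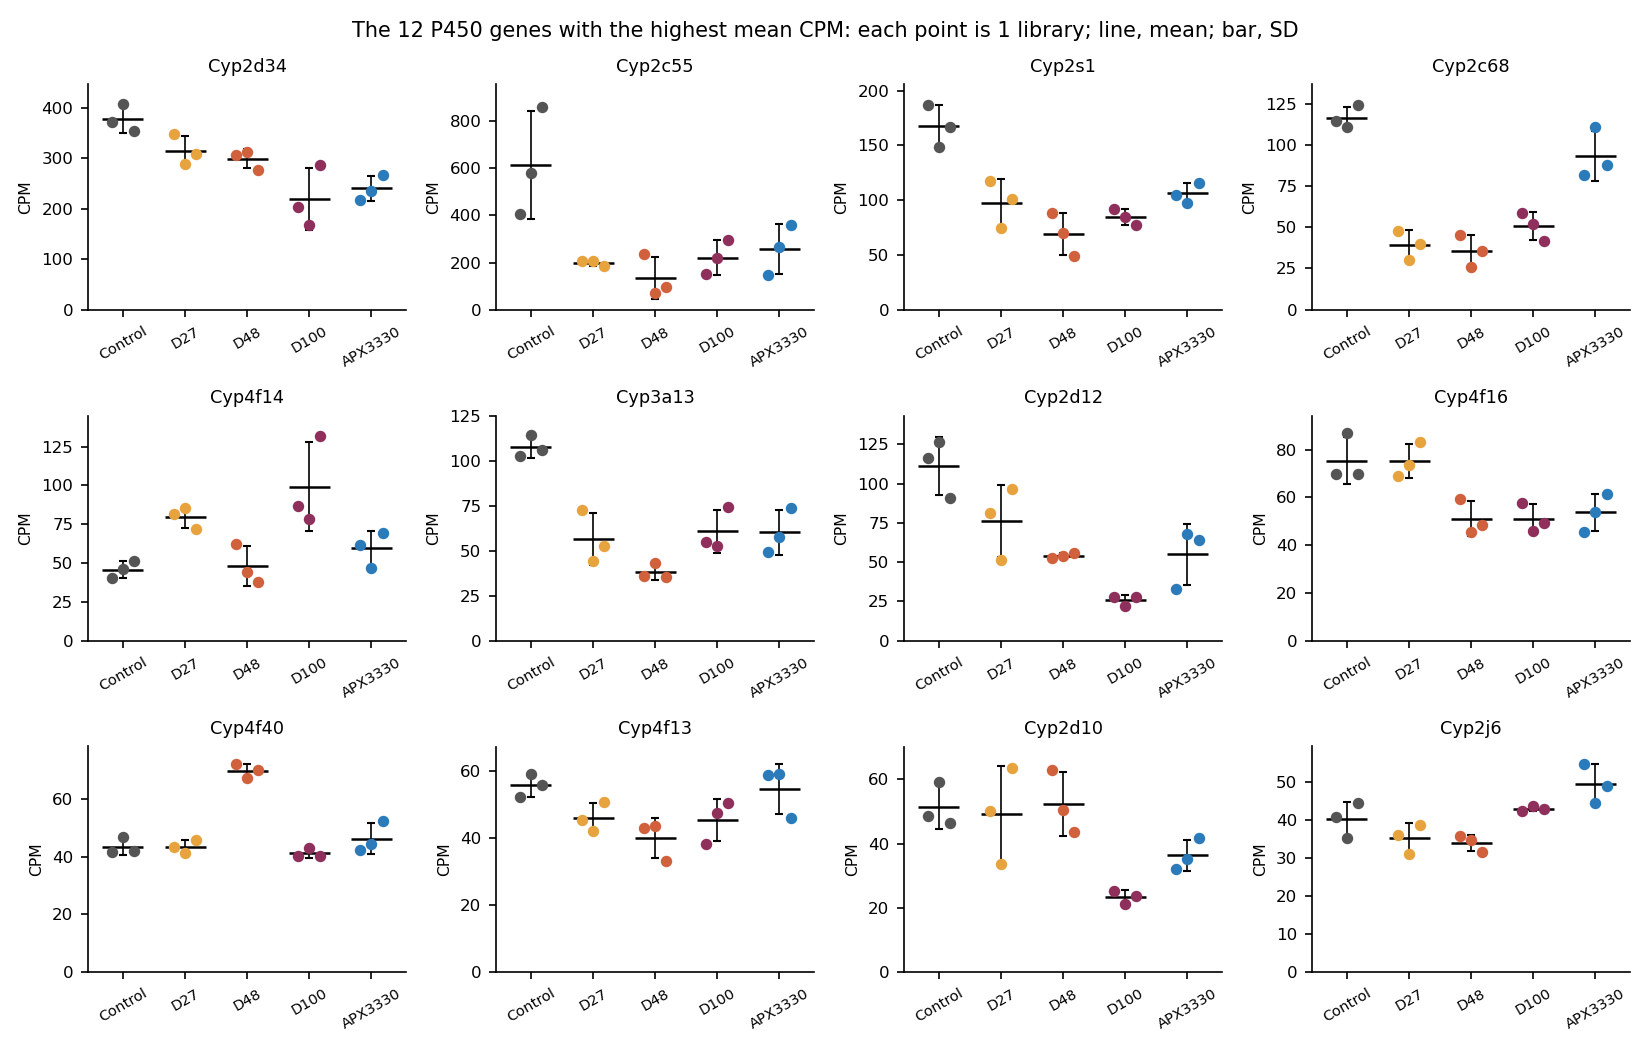
CPM of the 12 members with the highest mean over all libraries, on linear axes from 0; points are libraries, lines the mean and bars the SD of 3. In Cyp2c55, Cyp2s1, Cyp2d34 and Cyp3a13 all Control points lie above all others, Cyp4f14 is highest at D27 and D100, and Cyp4f40 is at 67.4 to 72.2 CPM at D48 and at most 52.3 in every other library.

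Cyp2j6 (chromosome 4, 96516138 to 96553661, minus strand), a fatty acid epoxygenase expressed in the intestine, was highest under APX3330. It stood at 40.8, 35.4 and 44.5 CPM (Control), 36.1, 31.02 and 38.7 (D27), 35.8, 34.8 and 31.7 (D48), 42.3, 43.7 and 43.1 (D100) and 54.9, 44.6 and 49.2 (APX3330). The APX3330 libraries were above all libraries of the 3 saline groups and of Control, by a narrow margin over Control replicate 3. It was higher with APX3330 than at D27 by log2 0.49 ± 0.11 (SE, adjusted p = 0.0177) and than at D48 by log2 0.54 ± 0.11 (SE, adjusted p = 0.00425). The first was lost on leaving out saline D27 replicate 1 or 2 (adjusted p = 0.0552 to 0.076998) and with only these 2 groups in the fit (adjusted p = 0.0524), the second without the 5 libraries (adjusted p = 0.168). No comparison with Control was called. The other tested gene of the 8 Cyp2j genes, Cyp2j9, was at 2.68 ± 0.465 to 4.35 ± 1.16 CPM and was called in no comparison.

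Cyp2w1 (chromosome 5, 139352617 to 139357033, plus strand), known as a fetal gut gene found again in colorectal tumours, was low throughout. It was at 5.26, 3.06 and 2.19 CPM (Control), 2.95, 1.03 and 1.796 (D27), 6.15, 5.36 and 6.25 (D48), 1.13, 1.41 and 0.752 (D100) and 1.62, 2.73 and 2.21 (APX3330). The D48 libraries were above all others and the D100 libraries were below all of Control, D48 and APX3330. D100 was lower than D48 with log2 -2.42 ± 0.41 (SE, adjusted p = 0.00198) and than Control with log2 -1.66 ± 0.41 (SE, adjusted p = 0.00922), and APX3330 was lower than D48 with log2 -1.44 ± 0.39 (SE, adjusted p = 0.0175). The last 2 calls were lost on leaving out Control replicate 1 (adjusted p = 0.0586) and on leaving out saline D48 replicate 3 or APX3330 replicate 1 (adjusted p = 0.0505 to 0.0577). The D48 libraries include the 2 with pancreatic transcripts, and without the 5 libraries these 3 calls were lost (adjusted p = 0.0619 to 0.195). Replicate 1, the D48 library left in that fit, had 6.15 CPM.

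Cyp4 genes oxidise the far end of fatty acid chains. The Cyp4f genes, 6 tested of 8 in a cluster on chromosome 17 (32452723 to 32947402) plus Cyp4f18 on chromosome 8, summed to 235 ± 15.8 CPM in Control, 259 ± 8.38 at D27, 227 ± 23.4 at D48, 253 ± 31.2 at D100 and 229 ± 16.3 in APX3330. Control overlapped with D48, D100 and APX3330. Within this sum some genes were called higher than Control and others lower.

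Cyp4f14 (chromosome 17), whose enzyme breaks down the inflammatory lipid leukotriene B4, was at 40.1, 45.9 and 51.1 CPM (Control), 81.5, 85.2 and 71.9 (D27), 62.2, 44.5 and 37.6 (D48), 87.1, 78.4 and 132 (D100) and 61.8, 46.96 and 69.4 (APX3330). The D27 and D100 libraries were above all Control libraries and D48 overlapped with Control. It was higher than Control at D100 by log2 1.12 ± 0.20 (SE, adjusted p = 0.00127) and at D27 by log2 0.80 ± 0.20 (SE, adjusted p = 0.013005), the latter lost on leaving out Control replicate 1 or saline D27 replicate 2 (adjusted p = 0.05303 to 0.0589). D100 was higher than D48 by log2 1.04 ± 0.20 (SE, adjusted p = 0.00452). Without the 5 libraries the D100 call against Control held and the other 2 were lost (adjusted p = 0.123 and 0.187). With APX3330 it was lower than at D100 in all libraries, with a log2 value of -0.74 ± 0.20 (SE, adjusted p = 0.118) in edgeR and -0.74 with an adjusted p of 0.0160 in DESeq2.

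Cyp4f40 (chromosome 17, 32658900 to 32676914, plus strand) stood out at D48. It was at 41.6, 46.8 and 42.002 CPM (Control), 43.5, 41.2 and 45.8 (D27), 72.2, 67.4 and 70.2 (D48), 40.4, 43.1 and 40.4 (D100) and 42.2, 44.6 and 52.3 (APX3330). The 3 D48 libraries stood above all 12 others, which lay within 40.4 to 52.3 CPM. D48 was higher than Control by log2 0.69 ± 0.09 (SE, adjusted p = 0.00012) and than D27 by log2 0.69 ± 0.09 (SE, adjusted p = 0.00323), and D100 and APX3330 were lower than D48, with log2 -0.76 ± 0.09 (SE, adjusted p = 0.000237) and -0.60 ± 0.09 (SE, adjusted p = 0.000706). These 4 calls held with any 1 library left out, and the last 2 also without the 5 libraries, where the first 2 were lost (adjusted p = 0.133 and 0.116). The D48 library without pancreatic or squamous transcripts, replicate 1, had the highest value, 72.2 CPM.

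Cyp4f16 and Cyp4f13 lie in the same cluster, and the specific role of each is less known. Cyp4f16 was at 69.7, 86.8 and 69.6 CPM (Control), 68.9, 73.7 and 83.1 (D27), 59.3, 45.4 and 48.6 (D48), 57.8, 46.03 and 49.3 (D100) and 45.7, 54.02 and 61.4 (APX3330). The D48, D100 and APX3330 libraries were all below Control and D27. It was lower than Control at D48 with log2 -0.56 ± 0.14 (SE, adjusted p = 0.00666), at D100 with log2 -0.56 ± 0.14 (SE, adjusted p = 0.00786) and under APX3330 with log2 -0.49 ± 0.14 (SE, adjusted p = 0.0238), the last lost on leaving out Control replicate 2 or APX3330 replicate 1 or 2 (adjusted p = 0.0633 to 0.09998) and with epithelial scaling, where it was -0.29 (adjusted p = 0.126). The D48 call was lost without the 5 libraries (adjusted p = 0.218), where the D100 value was -0.87, still called. Against D27, D100 gave -0.56 ± 0.14 (SE, adjusted p = 0.0379) and APX3330 -0.49 ± 0.14 (SE, adjusted p = 0.0363), and these were lost on leaving out saline D27 replicate 1 or 2 or 3 or saline D100 replicate 2 or 3 (adjusted p = 0.0793 to 0.121) and on leaving out saline D27 replicate 1 or 2 or 3 or APX3330 replicate 1 or 2 (adjusted p = 0.0664 to 0.0964). Both were lost with epithelial scaling (adjusted p = 0.0892 and 0.0887), the first also without the 5 libraries (adjusted p = 0.0572) and the second with only the groups compared in the fit (adjusted p = 0.0524). Cyp4f13 was at 52.1, 58.9 and 55.8 CPM (Control), 45.2, 41.9 and 50.7 (D27), 42.95, 43.4 and 32.9 (D48), 38.2, 47.3 and 50.2 (D100) and 58.6, 58.95 and 45.8 (APX3330). The D27, D48 and D100 libraries were all below Control, and APX3330 reached from below to just above the Control range. It was lower at D48 than in Control with log2 -0.48 ± 0.14 (SE, adjusted p = 0.0157) and higher with APX3330 than at D48 by log2 0.45 ± 0.14 (SE, adjusted p = 0.0302), lost on leaving out Control replicate 2 or saline D48 replicate 3 (adjusted p = 0.0539 to 0.0798) and on leaving out saline D48 replicate 3 or APX3330 replicate 1 or 2 (adjusted p = 0.0849 to 0.125). Both were lost without the 5 libraries (adjusted p = 0.309 and 0.332), the first with epithelial scaling (adjusted p = 0.108) and the second with only the groups compared in the fit (adjusted p = 0.0817).

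Cyp4f18 (chromosome 8, 71988482 to 72009626), an oxidase of leukotriene B4 known from myeloid cells, was higher than Control in all 4 groups. It was at 2.82, 3.28 and 3.66 CPM (Control), 6.52, 6.67 and 7.74 (D27), 9.71, 7.48 and 14.01 (D48), 8.54, 7.11 and 9.32 (D100) and 5.804, 4.197 and 13.5 (APX3330). No library overlapped with Control, and APX3330 replicate 3 and saline D48 replicate 3 were the highest. The log2 fold changes were 1.10 ± 0.35 (SE, adjusted p = 0.0404) at D27, 1.68 ± 0.35 (SE, adjusted p = 0.002701) at D48, 1.35 ± 0.35 (SE, adjusted p = 0.0128) at D100 and 1.26 ± 0.35 (SE, adjusted p = 0.0254) under APX3330. The D48 call held with any 1 library left out. The D27 call was lost in all 6 such fits (adjusted p = 0.0721 to 0.124), the D100 call on leaving out Control replicate 1 (adjusted p = 0.0542) and the APX3330 call on leaving out Control replicate 1 or 2 or 3 or APX3330 replicate 3 (adjusted p = 0.0542 to 0.167) and with only these 2 groups in the fit (adjusted p = 0.07402). Without APX3330 replicate 3 the APX3330 value was 0.62. All 4 calls were lost without the 5 libraries (adjusted p = 0.2196 to 0.301), with values of 1.08, 1.56, 1.32 and 1.25 in the same order. The sum of 8 macrophage markers was 295 to 389 CPM in Control and 624 to 853, 888 to 1267, 606 to 800.1 and 413 to 577 CPM in D27, D48, D100 and APX3330, and none of the 8 was at 0. Saline D48 replicate 3 had the highest macrophage sum of all libraries. APX3330 replicate 3 had the lowest of all AOM/DSS libraries, 413 CPM. Against Control, 6 of the 8 were higher and 1 lower at D27, 7 and 1 at D48, 7 and 1 at D100, and 3 and 1 under APX3330. Of 8 neutrophil markers, 1 was at 0 in D100 and in APX3330 and 6 were tested, of which 5 were higher than Control at D48 (median log2 3.97), 2 at D27 and 2 at D100, where 1 was lower, and 2 higher and 2 lower under APX3330. Csf3r, the receptor of a granulocyte growth factor, was at 1.13 to 2.55 CPM in Control and 17.9 to 27.03 at D48. The sum of the 8, 102 to 138 CPM in Control and 25.6 to 158 elsewhere, was mostly Ly6g, which was at 96.7 to 135 CPM in Control and 90.7 to 103 at D48. Their part in the values of Cyp4f18 was not tested.

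Cyp4f39 (chromosome 17), the skin barrier enzyme that hydroxylates very long fatty acids, was highest in the 3 libraries richest in squamous transcripts. It was at 6.55, 0.948 and 5.45 CPM (Control), 0.501, 0 and 1.36 (D27), 0.529, 0.463 and 0.232 (D48), 3.599, 0.832 and 0.0752 (D100) and 0, 0.533 and 0.134 (APX3330). Control replicates 1 and 3 and saline D100 replicate 1 were the 3 highest, and these are the 3 libraries with the highest squamous marker sums. Saline D48 replicate 2, with a squamous sum of 117 CPM, had 0.463 CPM of Cyp4f39, below replicate 1 of its group. It was called lower at D48 with log2 -3.39 ± 1.12 (SE, adjusted p = 0.0345) and under APX3330 with log2 -4.23 ± 1.21 (SE, adjusted p = 0.0283). Without the 5 libraries the values were -0.83 and -2.05 and neither was called, the D48 call was lost with DESeq2 (adjusted p = 0.0549), and the calls were also lost on leaving out Control replicate 1 or 3 or saline D48 replicate 1 or 2 or 3 (adjusted p = 0.06902 to 0.112) and on leaving out Control replicate 1 or 3 or APX3330 replicate 1 or 3 (adjusted p = 0.06902 to 0.0921). All 12 squamous markers had counts in Control and all 12 in D100 and D48, against 11 in D27 and 8 in APX3330. Cyp4v3, the mouse counterpart of the fatty acid hydroxylase CYP4V2, was lower than Control (17.1 ± 0.764 CPM) at D27 (9.85 ± 2.05 CPM) with log2 -0.80 ± 0.16 (SE, adjusted p = 0.0034003) and at D100 with log2 -0.58 ± 0.16 (SE, adjusted p = 0.0171), the latter lost on leaving out Control replicate 1 or 2 or saline D100 replicate 1 or 3 (adjusted p = 0.0506 to 0.0661) and with epithelial scaling (adjusted p = 0.173). It was higher with APX3330 than at D27 by log2 0.63 ± 0.16 (SE, adjusted p = 0.0257), lost on leaving out saline D27 replicate 2 or APX3330 replicate 2 (adjusted p = 0.0848 to 0.105) and with only these 2 groups in the fit (adjusted p = 0.0824). All 3 of its calls were lost without the 5 libraries (adjusted p = 0.0638 to 0.283).

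Cyp2e1 and the Cyp1 genes, which are known for activating carcinogens, were at most at 17.8 CPM in any library. Cyp2e1 (chromosome 7, 140763739 to 140774987, plus strand), which oxidises ethanol and azoxymethane and is abundant in liver and fat, stood at 1.22, 0.802 and 6.51 CPM (Control), 17.8, 13.1 and 5.57 (D27), 6.21, 4.699 and 4.63 (D48), 10.7, 14.02 and 12.2 (D100) and 2.77, 0.333 and 0.201 (APX3330). The D27 and D100 means were highest, APX3330 had the 2 lowest libraries, and Control and D27 overlapped. D100 was higher than Control by log2 2.10 ± 0.71 (SE, adjusted p = 0.0468), lost on leaving out Control replicate 1 or 2 or saline D100 replicate 1 or 2 or 3 (adjusted p = 0.0624 to 0.158) and with DESeq2 (adjusted p = 0.0706). Without Control replicate 3 the value was 3.58, and without the 5 libraries 4.01 (adjusted p = 0.05302). APX3330 was lower than D27 with log2 -3.46 ± 0.79 (SE, adjusted p = 0.0171), lost on leaving out saline D27 replicate 1 or 2 or APX3330 replicate 2 or 3 (adjusted p = 0.05298 to 0.0707), and without APX3330 replicate 1 the value was -5.47. Against D100, APX3330 gave -3.48 ± 0.79 (SE, adjusted p = 0.0623) in edgeR and -3.49 with an adjusted p of 0.0106 in DESeq2. The sum of 8 adipocyte markers was 77.9, 61.0 and 104 CPM in Control, 184, 171 and 65.2 at D27, 74.2, 63.4 and 92.2 at D48, 96.4, 133 and 89.1 at D100 and 44.8, 32.0 and 22.4 under APX3330. The 2 APX3330 libraries with the lowest Cyp2e1 had the lowest adipocyte sums, and the D27 library lowest in Cyp2e1 was the lowest of its group in both. Other libraries went the other way. Control replicate 1 had an adipocyte sum of 77.9 CPM with Cyp2e1 at 1.22, and saline D48 replicate 1 had 74.2 with 6.21. Of the 8 adipocyte markers, 4 were higher and 0 lower than Control at D27, with a median log2 fold change of 1.88. At D100, 0 were higher and 1 was lower than Control, with a median of 1.28. With APX3330, 7 were lower than at D27. Of 10 hepatocyte markers, which summed to 60.2 to 165 CPM, Alb was at 0.637 to 2.58 CPM in all libraries, so other genes of the list made up most of the sum. Of the 4 that were tested, 1 was lower than Control at D27, 0 at D48, 2 at D100 and 0 under APX3330, and 0 were higher. The part of fat in the values of Cyp2e1 was not tested.

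**Figure D5:**
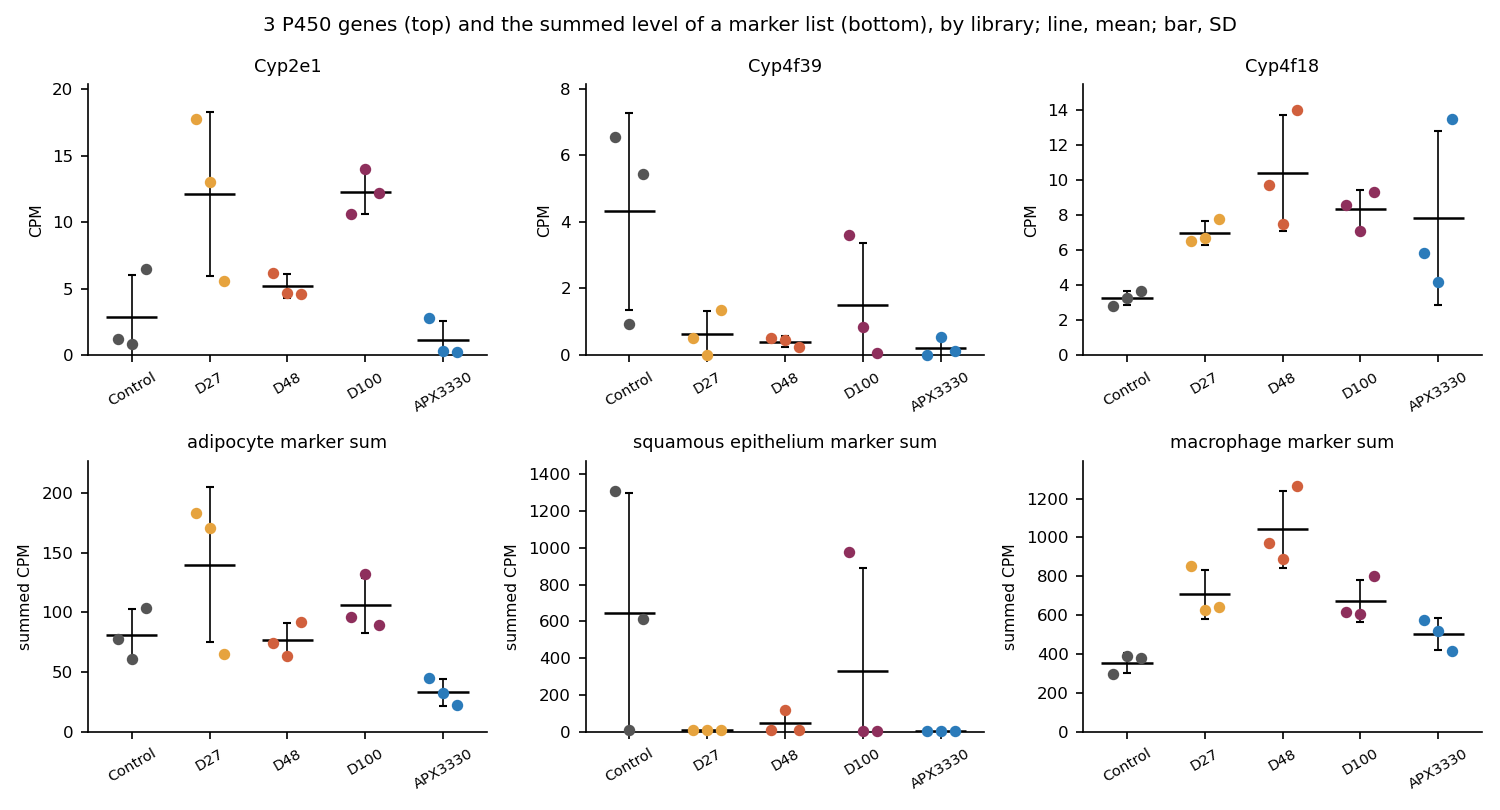
The upper panels give CPM of Cyp2e1, Cyp4f39 and Cyp4f18 by library in the 5 groups, and the lower panels the summed CPM of adipocyte, squamous epithelium and macrophage markers in the same libraries; lines are means and bars SD. Cyp2e1 and the adipocyte sum are both lowest in APX3330, Cyp4f39 and the squamous sum are highest in Control replicates 1 and 3 and saline D100 replicate 1, and Cyp4f18 and the macrophage sum are lowest in Control.

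Cyp1a1, the classical AHR target that oxidises polycyclic hydrocarbons, was at 2.95, 1.53 and 3.12 CPM (Control), 0.0557, 0.757 and 0.681 (D27), 0.595, 2.25 and 1.51 (D48), 0.847, 0.768 and 0.0752 (D100) and 0.945, 0.866 and 1.004 (APX3330). Control was above D27 and D100 in every library and overlapped with D48. It was called lower at D27 with log2 -2.36 ± 0.71 (SE, adjusted p = 0.0306) and at D100 with log2 -2.14 ± 0.71 (SE, adjusted p = 0.0413), lost on leaving out Control replicate 1 or 3 or saline D27 replicate 1 or 2 (adjusted p = 0.0555 to 0.0952) and on leaving out Control replicate 1 or 3 or saline D100 replicate 2 or 3 (adjusted p = 0.0704 to 0.122), and both without the 5 libraries (adjusted p = 0.384 and 0.391). Epithelial scaling also ended the D100 call (adjusted p = 0.0628). The 150 bases before its start (chr9:57697463-57697612, plus strand, GRCm38.p6) hold the AHR core GCGTG and the TATA box letters TATAAA, both in capitals, 54 and 30 bases before the start. The RefSeq start used lies inside the gene as GENCODE draws it.
Cyp1a1: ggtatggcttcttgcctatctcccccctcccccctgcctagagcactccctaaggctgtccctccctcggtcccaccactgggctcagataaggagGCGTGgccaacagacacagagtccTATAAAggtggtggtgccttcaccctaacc
GCGTG was found, on either strand within 250 bases, in 9 of the 27 tested P450 genes with a promoter in the table and in 28.2% of all 32851 promoters. TATAAA on the gene's strand was found in 5 of the 27 and in 7.59% of all. Cyp1b1, also an AHR target and known from stromal cells, ranged from 0.132 to 4.46 CPM with no call. Cyp1a2, the other Cyp1a gene, had no count in any library.

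Among the remaining low genes, Cyp2f2, an oxidase of naphthalene known from airway cells, fell from 18.4 ± 4.88 CPM in Control to 8.01 ± 1.69, 8.401 ± 3.91 and 8.23 ± 5.23 CPM at D27, D48 and D100, with 14.6 ± 2.27 in APX3330. The log2 changes were -1.20 ± 0.38 (SE, adjusted p = 0.0372), -1.13 ± 0.38 (SE, adjusted p = 0.0363) and -1.16 ± 0.38 (SE, adjusted p = 0.0393). Each of these was lost in at least 4 of 6 fits leaving out a library, among them those without Control replicate 1 or 3 (adjusted p = 0.0580 to 0.154). In the fit without the 5 libraries the D27 call was lost (adjusted p = 0.109) and the D48 value was -0.22 (adjusted p = 0.816). The D100 value was -1.80 without saline D100 replicate 1, and its call was lost with only these 2 groups in the fit (adjusted p = 0.0506). Cyp2a12 was under 1 CPM in every library, with 26 counts over Control and 1 over D100, a ratio of 25.3 (95% counting interval 4.15 to 1036), and its call at D100 was lost on leaving out Control replicate 1 or 3 or saline D100 replicate 2 or 3 (adjusted p = 0.0613 to 0.09302) and without the 5 libraries (adjusted p = 0.279). Called in no comparison were 8 of the 35 genes: Cyp1b1, Cyp2j9, Cyp2r1 (which hydroxylates vitamin D), Cyp2t4, Cyp2u1 (a fatty acid hydroxylase), Cyp4b1, Cyp4f17 and Cyp4x1. Of these Cyp4f17 had the highest level, 7.02 ± 1.47 CPM in Control and 6.16 ± 1.48 to 7.54 ± 3.41 elsewhere, and its log2 fold change between D100 and Control was -0.19 ± 0.29 (SE, adjusted p = 0.689), with a 95% interval from -0.75 to 0.38.

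The 28 genes with counts below the filter had at most 0.809 CPM on average. The highest, Cyp2b19, is an epoxygenase of keratinocytes. It had 187 counts in Control, all in replicates 1 and 3, which hold squamous transcripts, and 0 in the other 4 groups. Control was thus at least 68.4-fold above D27 and at least 63.0-fold above APX3330, against a floor of 3 counts over a group. Cyp2b10, the classical target of the receptor CAR, had 66 counts in Control, 32, 7 and 27 by library, and 0 in D27 and APX3330, at least 24.1-fold and 22.2-fold higher. In D48 it had 7, all in replicate 2. Control replicates 1 and 3 and saline D48 replicate 2 hold squamous transcripts. In D100 it had 1 count, for a ratio of 64.2 (95% interval 11.1 to 2572). Cyp3a57 had 20 counts in Control, 19 of them in replicate 1, and 0 in D100. Floors and intervals cover counting error only. The other 25 of these genes had from 1 to 76 counts over all libraries. They included Cyp2c67 (76), Cyp2d11 (59), Cyp2j13 (39), Cyp2c40 (35) and Cyp2a5 (30). The 13 genes with no count at all include Cyp1a2 and Cyp3a11, both abundant in liver, and a count of 0 allows up to 3 counts.

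Regulators and partners of these enzymes were counted from lists chosen with earlier results of the data known. Of 25 tested nuclear receptors and other regulators, 11 were lower and 1 higher at D27 than in Control, 10 and 2 at D48, 9 and 2 at D100 and 5 and 2 under APX3330. The shares of all genes called lower and higher were 9.36% and 10.2%, 13% and 14.3%, 10.5% and 11.4%, and 8.18% and 7.16% in that order. APX3330 had 2 higher and 1 lower than D27 (background 4.71% and 4.37%), 5 and 2 than D48 (background 9.41% and 10.3%), and none against D100 (background 0.305% and 0.2%). Pparg and Nr1d1 were among the 3 with the smallest F test p. Pparg, a fatty acid receptor of the colonocyte, was at 36.2 ± 4.02 CPM in Control, 32.2 ± 2.65 at D27, 23.5 ± 1.56 at D48, 49.2 ± 3.52 at D100 and 47.98 ± 2.34 under APX3330, and APX3330 was higher than D48 by log2 1.03 ± 0.11 (SE, adjusted p = 4.6e-05). Nr1d1, the clock repressor REV-ERBalpha, stood in that order of groups at 168 ± 60.8, 29.03 ± 10.2, 20.2 ± 10.1, 69.1 ± 24.5 and 94.996 ± 28.8 CPM and was lower at D48 than in Control with log2 -3.06 ± 0.39 (SE, adjusted p = 8.86e-05). Dbp, Tef and Hlf, clock-driven factors known to act on P450 genes and named here after their values were seen, were lower at D48 with log2 -3.66 ± 0.54 (SE, adjusted p = 0.000238), -2.001 ± 0.26 (SE, adjusted p = 9.95e-05) and -2.004 ± 0.32 (SE, adjusted p = 0.000445), and lower under APX3330 with log2 -1.96 ± 0.49 (SE, adjusted p = 0.0145), -1.25 ± 0.25 (SE, adjusted p = 0.00409) and -1.27 ± 0.31 (SE, adjusted p = 0.0134). Their part in the values of the P450 genes was not tested, and the hour at which tissue was taken is not given in the sources used here.

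Of 11 tested genes of the AHR pathway, 1 was lower than Control at D27, 1 at D48, none at D100 and 1 under APX3330, and 2 were higher with APX3330 than at D27 and 2 than at D48. At the shares of all genes given for the regulators, the counts against Control are near or below background. Ugt1a6a, a conjugating enzyme induced through AHR, was at 3.48 ± 0.545 CPM in Control, 1.79 ± 0.537 at D48 and 5.28 ± 1.27 with APX3330, higher with APX3330 than at D48 by log2 1.55 ± 0.31 (SE, adjusted p = 0.00294). Of 16 genes for electron supply and haem, 2 were lower and 1 higher at D27 than in Control, 3 and 3 at D48, 2 and 0 at D100 and 1 and 1 under APX3330. The background shares are those given for the regulators. Hmox1, which breaks down haem, rose at D48 from 7.398 ± 0.551 to 15.1 ± 2.199 CPM, by log2 1.03 ± 0.21 (SE, adjusted p = 0.00192), and Fech, which inserts the iron that makes haem, fell from 67.3 ± 3.21 to 49.5 ± 2.56 CPM, with log2 -0.44 ± 0.08 (SE, adjusted p = 0.00145). Cpox, an earlier enzyme of haem synthesis, was higher with APX3330 than at D48 by log2 0.68 ± 0.12 (SE, adjusted p = 0.00127).

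P450 genes of the families above 4, which act mainly on sterols, bile acids and vitamins, gave 11 tested genes. Against Control, 2 were lower and 1 higher at D27, 2 and 0 at D48, 2 and 1 at D100 and 2 and 1 under APX3330, where 7.16% to 14.3% of all genes were called in each direction. Cyp27a1, a hydroxylase of the sterol side chain, was lower than Control in all 4 groups, from log2 -0.58 ± 0.14 (SE, adjusted p = 0.00649) at D48 to -1.48 ± 0.15 (SE, adjusted p = 1.02e-05) at D100. Cyp51, an enzyme of cholesterol synthesis, was higher at D27 by log2 0.90 ± 0.19 (SE, adjusted p = 0.00422) and at D100 by log2 1.01 ± 0.19 (SE, adjusted p = 0.00142). Cyp39a1, an oxysterol hydroxylase, was lower at D27 with log2 -0.75 ± 0.15 (SE, adjusted p = 0.00298) and higher with APX3330 than at D27 by log2 0.86 ± 0.15 (SE, adjusted p = 0.00616). Of the 4 epoxide hydrolases, which open the epoxides that P450 enzymes make, 1 was lower than Control at D27, 1 at D48 and 2 at D100, with shares of all genes called lower of 9.36%, 13% and 10.5%. Ephx4 fell from 4.35 ± 0.875 CPM in Control to 1.79 ± 0.834 at D100, with log2 -1.27 ± 0.34 (SE, adjusted p = 0.0143), and Ephx2 fell with log2 -0.58 ± 0.19 (SE, adjusted p = 0.04001) at the same day.

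Scaling to the 10 pan-epithelial genes in place of library size shifted the median of all genes upward by 0.21 (APX3330 against Control), 0.17 (D100 against Control), 0.11 (D48 against Control) and 0.13 (APX3330 against D27) on the log2 scale. Under this scaling the P450 genes had 9 lower and 2 higher at D27, 13 and 2 at D48 and 14 and 3 at D100 against Control. With APX3330 the split against Control went from 8 lower and 1 higher to 5 lower and 3 higher, where 3.98% of all genes were then called lower and 15.9% higher. The shares of all genes called lower were 4.19%, 6.77% and 5.11% at D27, D48 and D100, and those called higher 9.09%, 16.3% and 15.4%. For D100 against D27 the split went from 5 lower and 2 higher to 3 lower and 2 higher. The shares of all genes went from 1.45% lower and 1.63% higher to 0.183% lower and 0.521% higher.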

How the data were processed

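RNA was prepared with a column kit and libraries with a SMARTER kit, per the labels' protocols. The authors deposited whole-number counts per gene, 1 column for each of 15 libraries. Genome builds GRCm38 and mm10 are named, per the submitters' processing notes, with aligner, counter, annotation and strand setting not given in the sources used here. Where reads fit several paralogues, they may have been split or dropped, and pairs on opposite strands cannot be told apart.

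Counts were filtered with filterByExpr and tested with edgeR 4.0.16 (TMM factors, quasi-likelihood test, all 15 libraries in 1 fit, R 4.3.3), with Benjamini-Hochberg adjustment over 18038 genes and a threshold of 0.05. Alternatives were DESeq2 size factors, no filter, DESeq2 1.42.0, a block for the replicate number, a fit of only the compared groups, scaling to 10 epithelial genes, each library left out in turn, and no squamous or pancreatic libraries. Members and gene lists were chosen with earlier results of these data known. Values in every library are given for the 12 members with the highest mean CPM, the 2 with the smallest p in each comparison, and others chosen after their values were seen. From each pathway list at most 3 genes were named by the smallest F test p, and other names are marked. A gene that this rule names is not reported here. Data simulated for saline D27 against Control held 18038 genes, 200 of them changed. In these data the test recovered 57% of changes of log2 1 and 100% of changes of log2 2, with 8 false calls. Whether these figures hold for the real counts, or for genes with few counts, was not tested.

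Exon lengths, positions and coding sequences came from GENCODE M21 (GRCm38), which matched 75 of the 76 members and 34 of the 35 tested, and promoters from RefSeq (GRCm38.p6), which matched 27 of the 35. Near copies were ranked by coding sequence in place of the protein identity first planned. No 2 libraries of a group agreed within sampling noise (chi-square over degrees of freedom 9.16 to 76.2), and all were kept. Library totals of 13548661 to 17919613 counts set the precision.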

Additional observations from a re-analysis of the deposited data

How the results depend on the processing

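Of the 93 calls, 93 held with DESeq2 size factors, 92 without the filter on low counts, 90 with DESeq2, 84 with only the compared groups in the fit, 81 with epithelial scaling and 35 when the 5 libraries with squamous or pancreatic signal were left out, and none changed direction under these alternatives. Without the filter, the counts for APX3330 rose to 14 against Control, 13 against D27, 14 against D48 and 9 against D100. That for D48 against D27 rose to 8. The shares of all genes then called higher were 8.13%, 4.76%, 8.41%, 1.42% and 2.90% in that order. Those called lower were 8.79%, 7.24%, 11.7%, 2.81% and 1.92%. DESeq2 called 6 for APX3330 against D100 and 4 for D48 against D27, and the fit of only the compared groups called 1 for APX3330 against D100. The cause was not tested. Without the 5 libraries, 1 library was left in Control and 1 in D48, so calls lost in that fit cannot be told apart from the loss of replicates.

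On leaving out each library in turn, the counts ran from 6 to 10 for D27 against Control (6 without D27 replicate 2, 7 without Control replicate 1, 9 without Control replicate 3 or D27 replicate 1), 13 to 15 for D48 and 12 to 17 for D100 against Control (12 without Control replicate 1), and 5 to 8 for APX3330 against Control (5 without Control replicate 3). They ran from 4 to 7 for APX3330 against D27 (4 without D27 replicate 1 or 2, 5 without APX3330 replicate 2), 5 to 10 against D48 (5 without D48 replicate 3) and 0 to 2 against D100 (1 without D100 replicate 1, 2 without APX3330 replicate 1). Between saline days they ran from 1 to 3 for D48 against D27 (2 without D27 replicate 1, 3 without D48 replicate 1), 3 to 6 for D100 against D27 (3 without D27 replicate 1 or 2 or D100 replicate 2 or 3) and 8 to 10 for D100 against D48, and from 20 to 26 in the F test.

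The replicate numbers did not pair the libraries, since in none of the 10 comparisons were all 3 correlations of same-numbered deviations above 0.1. With a replicate block, 85 of the 93 calls held. The replicate block gave 14, 15, 17 and 7 members called for D27, D48, D100 and APX3330 against Control, 7, 10 and 0 for APX3330 against D27, D48 and D100, 1, 5 and 10 for D48 against D27, D100 against D27 and D100 against D48, and 23 in the F test. Members with few counts are limited by depth, and reads shared among near copies by the unknown counting rule.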
